A study of Homo sapiens with 6 samples.

Results

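The genes described here encode heat shock proteins, cytosolic chaperones and the co-chaperones that work with them. Members were genes with an array probe set whose annotated symbol begins with HSPA, HSPB, HSPD, HSPE, HSPH, HSP90A or DNAJ, or with BAG or CCT and a digit, together with *STIP1*, *CHORDC1*, *FKBP4* and *SERPINH1*. *HSPA5*, *HSP90B1*, *DNAJB9* and *DNAJC3*, which belong to the stress response of the endoplasmic reticulum, were left out. This gave 71 of 10289 named genes, with 122 of 16569 probe sets. A probe set is a group of short probes on the array that reads 1 transcript or a few related ones. *HSPA1A*, *HSPA1B* and *HSPA1L* were read only by 2 probe sets that they share, and each of these was kept as 1 member, so that the counts below are over 70 members. *HSP90AB1* and *AHSA1* are not analysed here. The choice by name also took in *HSPBP1* and *HSPBAP1*, whose products bind heat shock proteins, and the read-through transcript *HSPE1-MOB4*. The label of cytosolic chaperones fits only in part, as *HSPA9*, *HSPD1*, *HSPE1*, *DNAJA3*, *DNAJC11* and *DNAJC19* encode mitochondrial proteins and *HSPA13*, *DNAJB11*, *DNAJC1*, *DNAJC10* and *SERPINH1* encode proteins of the endoplasmic reticulum.

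Expression was measured on Affymetrix arrays in HEK293T cells, a human embryonic kidney line, 48 hours after transient transfection. The 3 USF1 arrays came from cells given a plasmid with the coding region of *USF1*, cloned from cDNA into a tagged mammalian expression vector. The 3 Empty vector arrays came from cells given the vector without it, and untransfected HEK293T cells also make the USF1 protein. All cells were of this 1 line, and the labels and methods do not say whether replicate arrays stand for separate transfections. If they do not, the p-values reflect technical spread alone. The comparison asks which chaperone genes responded, directly or through other genes, to over-expression of *USF1*.

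The 1 probe set named for *USF1* alone had a mean log2 value of 4.79 ± 0.13 (SD, n = 3) over the USF1 arrays against 4.86 ± 0.43 (SD, n = 3) over the Empty vector arrays. The study checked over-expression on the protein level, by western blot. The probe set does not check the plasmid transcript, since the sources do not say whether its probes lie in the cloned coding region. Of 5 marker genes of HEK293T cells, *VIM* (10.1), *NEFL* (8.06) and *NEFM* (10.4) were measured, at mean log2 values above those of most probe sets. The others, *KRT8* and *KRT18*, had no probe set named for them alone. None of the 3 marker genes of blood cells, of adipocytes, of hepatocytes or of muscle had one either, so that absence does not tell cell types apart here. The actin 5′ minus 3′ value, a sign of RNA quality, was -1.34 in Empty vector replicate 1 and -1.04 in replicate 2. It lay between -0.68 and -0.49 in the other 4 arrays. The same value for GAPDH was -0.58 in Empty vector replicate 1. In replicate 2 it was -0.32, within the range of -0.35 to -0.26 of the other 4 arrays. Empty vector replicate 1 also stood apart, with an SD of the difference from each other Empty vector array of 0.336 over all probe sets, against 0.182 between those. The part of RNA quality in the differences below was not tested.

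Chaperones hold unfolded or partly folded proteins until they reach their shape, their partner or their breakdown. HSP70 proteins do this in cycles of ATP binding and hydrolysis, which J proteins of the DNAJ families start by bringing clients and stimulating hydrolysis. Exchange factors such as HSP110 and BAG proteins then release the nucleotide and the client. HSP90 acts later, on kinases and steroid receptors, with co-chaperones such as STIP1, and the ring-shaped CCT complex folds actin and tubulin. Under heat or other protein damage, the heat shock factor HSF1 binds repeats of the bases GAA in the promoters of many of these genes and raises their transcription. USF1 is a basic helix-loop-helix factor that binds a different short sequence, the E-box CACGTG.

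Promoters of members were read for both kinds of sequence in windows of 300 bases, from 250 before to 50 after each transcription start that RefSeq lists for GRCh38.p14. Of the 71 genes, 64 were matched to 87 starts. CACGTG reads the same on both strands, and it stood in the windows of 8 of the 64 (12.5%), against 13.2% of 8467 measured genes and 8.77% of all 27305 genes of the table. With only the first start listed for each gene, it was 12.5% of members against 10.6% of measured genes, so that the order depends on the starts used. The letters GAANNTTC or TTCNNGAA, pairs of the heat shock repeat that also read the same on both strands and can overlap, stood in 21 of the 64 (32.8%), against 13.6% of measured genes and 16.2% of all. At the first start alone they stood in 13 of the 64 (20.3%), against 9.71% of measured genes. A match is a run of letters and not a measured binding site. The stretches below are printed to show an E-box, in capitals, close before the start of 4 members. *HSPE1* and *HSPD1* lie head to head, and the E-box 22 bases before the start of *HSPE1* is also the one 88 bases before a start of *HSPD1*. That of *HSPA9* lies 19, that of *DNAJC12* 45 and the farthest of 3 in *HSPBAP1* 79 bases before the start.
HSPE1, chr2:197500330-197500378, plus strand: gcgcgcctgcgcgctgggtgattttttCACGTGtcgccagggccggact
HSPA9, chr5:138575402-138575447, minus strand: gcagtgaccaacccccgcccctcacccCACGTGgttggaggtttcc
DNAJC12, chr10:67838201-67838260, minus strand: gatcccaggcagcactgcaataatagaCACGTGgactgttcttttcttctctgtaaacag
HSPBAP1, chr3:122793878-122793937, minus strand: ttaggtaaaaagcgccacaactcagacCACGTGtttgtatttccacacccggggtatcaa

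A second set shows the heat shock pair, in capitals, before the start of 3 genes induced by heat, and before that of *HSPA4L*, the member with the largest difference. The pair lies 106 bases before the start of *HSPA1A*, 105 before that of *HSPA1B*, 83 before that of *HSP90AA1* and 170 before that of *HSPA4L*. The transcripts of *HSPA1A* and *HSPA1B* share both of their probe sets.
HSPA1A, chr6:31815410-31815471, plus strand: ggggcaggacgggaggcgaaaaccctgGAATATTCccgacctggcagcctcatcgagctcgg
HSPA1B, chr6:31827606-31827667, plus strand: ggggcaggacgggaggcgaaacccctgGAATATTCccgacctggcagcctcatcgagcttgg
HSP90AA1, chr14:102087093-102087154, minus strand: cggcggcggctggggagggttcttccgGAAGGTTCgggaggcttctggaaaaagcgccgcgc
HSPA4L, chr4:127782125-127782186, plus strand: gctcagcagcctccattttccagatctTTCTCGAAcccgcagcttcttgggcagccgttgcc

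Few chaperone genes passed the test after over-expression of *USF1*. Of the 70 members, 1 rose and 4 fell by limma at an adjusted p-value under 0.05. *HSPA4L*, *DNAJC27*, *DNAJB2* and *DNAJC19* fell and *DNAJC6* rose. In bulk RNA of transfected cultures, a change in every cell and a larger change in the transfected cells cannot be told apart, nor can fewer cells of a type and less RNA per cell. These are 7.14% of the members (4.10% of their 122 probe sets), where 11.9% of all 16569 probe sets were called, 4.32% higher and 7.6% lower. At an unadjusted p-value under 0.05 from limma 7 members were higher (10%) and 8 lower (11.4%), against 9.79% and 21.5% of all probe sets. The 3 USF1 arrays lay beyond all 3 Empty vector arrays in 11 members upward and in 14 downward, together 35.7%, against 36.1% of all probe sets. The log2 differences of the members ran from -0.81 to 0.42 around a median of 0.0096, with 37 above 0 and 33 below it. Of all probe sets 60.8% were below 0. The median over all probe sets was -0.065, and it was 0.0039 after each array was centred on its own median, when that of the members was 0.078.

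**Figure D1:**
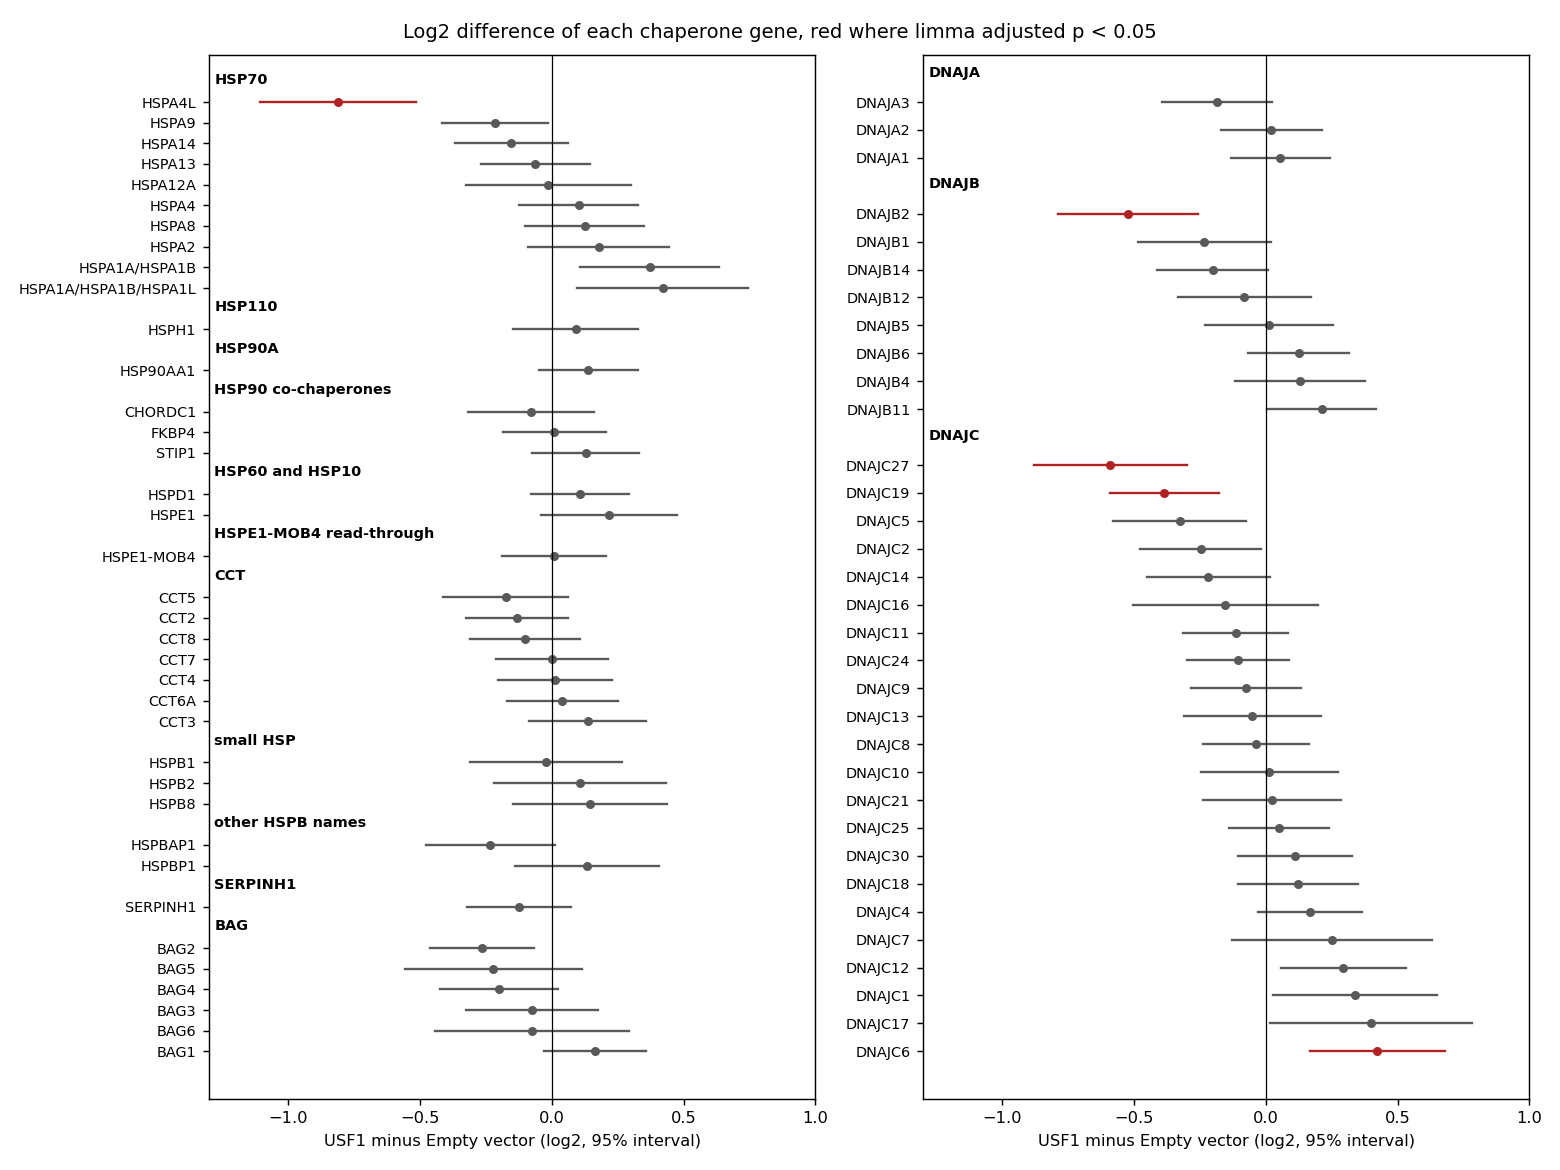
USF1 minus Empty vector (log2, horizontal axis) for the 70 members, grouped by family and ordered by size, with the 95% interval from limma as a bar. The 5 members that passed the test are in red, 4 left of 0 and *DNAJC6* right of it, and the other intervals lie between -1 and 1.

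Each interval of the other 65 members holds for 1 probe set per member, without allowance for the number of members. For 56 of these members the 95% interval lay within 0.5 of 0 on the log2 scale, and for 65 of 65 within 1. Other probe sets of *HSPA4* (-0.25 to 1.47) and *BAG5* (-0.40 to 1.09) had intervals past 1. No call of a member came from the probe sets of strongest signal. A signal depends on the probes as well as on the transcript, so it serves here only to sort probe sets. The 25% of probe sets with the strongest mean signal held 55 of the 122 probe sets of the members, none of them called, while 7.44% of all probe sets in that range were. In the weakest 25% 2 of 21 were called, in the next 25% 0 of 16 and in the one above it 3 of 30, against 13.4%, 15.2% and 11.7% of all probe sets.

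*HSPA4L*, which encodes a relative of HSP110 that acts as an exchange factor for HSP70, had the largest difference of any member. Its log2 values were 5.80, 6.20 and 5.76 in the USF1 arrays and 6.76, 6.82 and 6.61 in the Empty vector arrays. Each USF1 array was below each Empty vector array, and USF1 replicate 2 was the nearest to them. The means were 5.92 ± 0.24 (SD, n = 3) and 6.73 ± 0.11 (SD, n = 3), a difference of -0.81 (SE 0.13, 95% interval -1.11 to -0.52, limma adjusted p-value = 0.0094), or 0.57 times the Empty vector level. It was called without 5 of the 6 arrays in turn, with differences from -0.95 to -0.73, and had an adjusted p-value of 0.051 from limma without USF1 replicate 3. *HSPA4L* has 1 probe set.

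*DNAJC27*, a small GTPase related to Ras that carries a J domain, had a weak signal. Its log2 values were 3.95, 4.14 and 3.65 in the USF1 arrays and 4.53, 4.44 and 4.54 in the Empty vector arrays. The groups did not overlap, and the USF1 arrays were spread more widely (SD 0.25 against 0.055). The difference was -0.59 (SE 0.13, limma adjusted p-value = 0.024). *DNAJB2*, a J protein that binds ubiquitin and passes clients to the proteasome, also had a weak signal, with log2 values of 4.68, 4.71 and 4.42 in the USF1 arrays and 5.26, 5.16 and 4.96 in the Empty vector arrays. Again no arrays overlapped, and replicate 3 was the lowest of each group. The difference was -0.52 (SE 0.12, limma adjusted p-value = 0.0262). Both genes lie in the weakest 25% of probe sets and have 1 probe set each.

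*DNAJC19* encodes a J protein of the inner mitochondrial membrane that works with the import motor. Its log2 values were 6.22, 6.19 and 6.08 in the USF1 arrays and 6.63, 6.56 and 6.45 in the Empty vector arrays, a difference of -0.39 (SE 0.09, limma adjusted p-value = 0.0309). The groups did not overlap. Its second probe set differed by -0.29 and was not called (limma adjusted p-value = 0.11). *DNAJC6* encodes auxilin, which brings HSP70 to clathrin-coated vesicles to remove their coat. Its log2 values were 6.68, 6.41 and 6.75 in the USF1 arrays and 6.32, 6.15 and 6.11 in the Empty vector arrays, a difference of 0.42 (SE 0.11, limma adjusted p-value = 0.0452), or 1.34 times the Empty vector level. Each USF1 array was above each Empty vector array, and the nearest 2, USF1 replicate 2 and Empty vector replicate 1, were close.

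**Figure D2:**
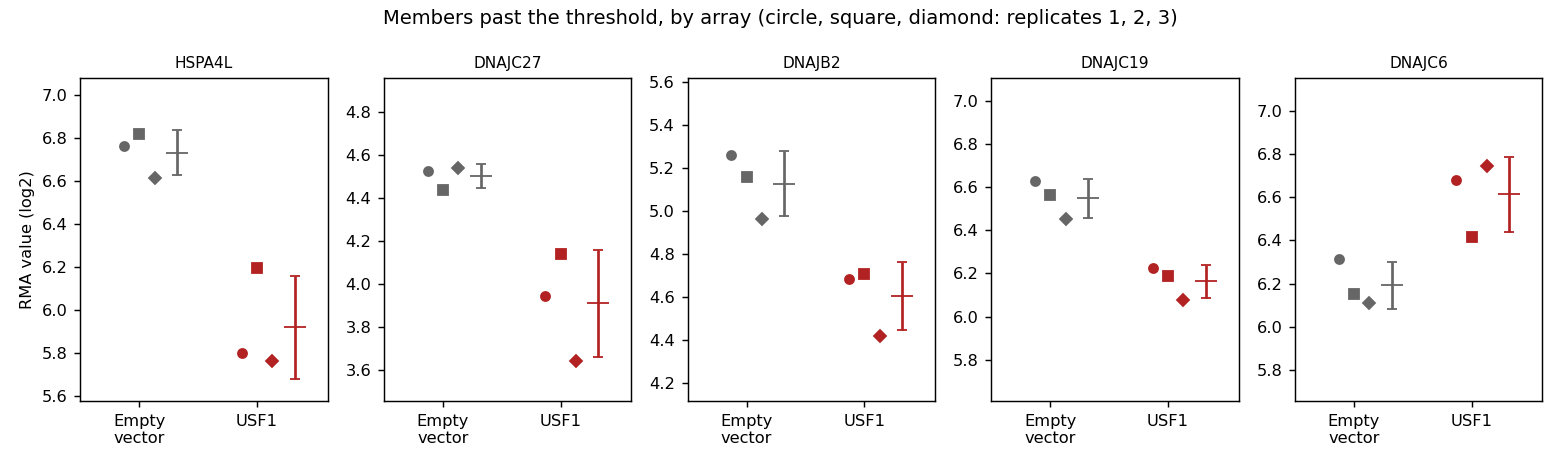
RMA expression values (log2, vertical axis, each panel with its own range) of the 5 members past the threshold, with USF1 arrays as red and Empty vector arrays as grey points and each group's mean (bar) and SD (error bar) over 3 arrays at their side. The symbols mark replicates 1, 2 and 3, and in each panel the groups do not overlap.

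These calls depended on single arrays. Without 1 array at a time, *DNAJB2* and *DNAJC19* were called in 3 of 6 cases and *DNAJC27* and *DNAJC6* in 2 of 6. *DNAJB2* differed by -0.60 to -0.43, *DNAJC19* by -0.43 to -0.34, *DNAJC27* by -0.71 to -0.46 and *DNAJC6* by 0.36 to 0.52, so that no sign turned. Without USF1 replicate 1, USF1 replicate 3 or Empty vector replicate 2 none of these 4 was called. Without Empty vector replicate 3 *DNAJC27* and *DNAJC6* were not called. Calls over all probe sets were fewer too, 2.81%, 2.23%, 3.46% and 6.70% in these cases. Without both Empty vector arrays of low actin value, a comparison chosen after seeing the data that leaves 1 Empty vector array, assumed to vary like the other arrays, no member was called and 1.67% of all probe sets were. The differences were then -0.69 for *HSPA4L*, -0.63 for *DNAJC27*, -0.36 for *DNAJB2*, -0.29 for *DNAJC19* and 0.51 for *DNAJC6*.

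**Figure D3:**
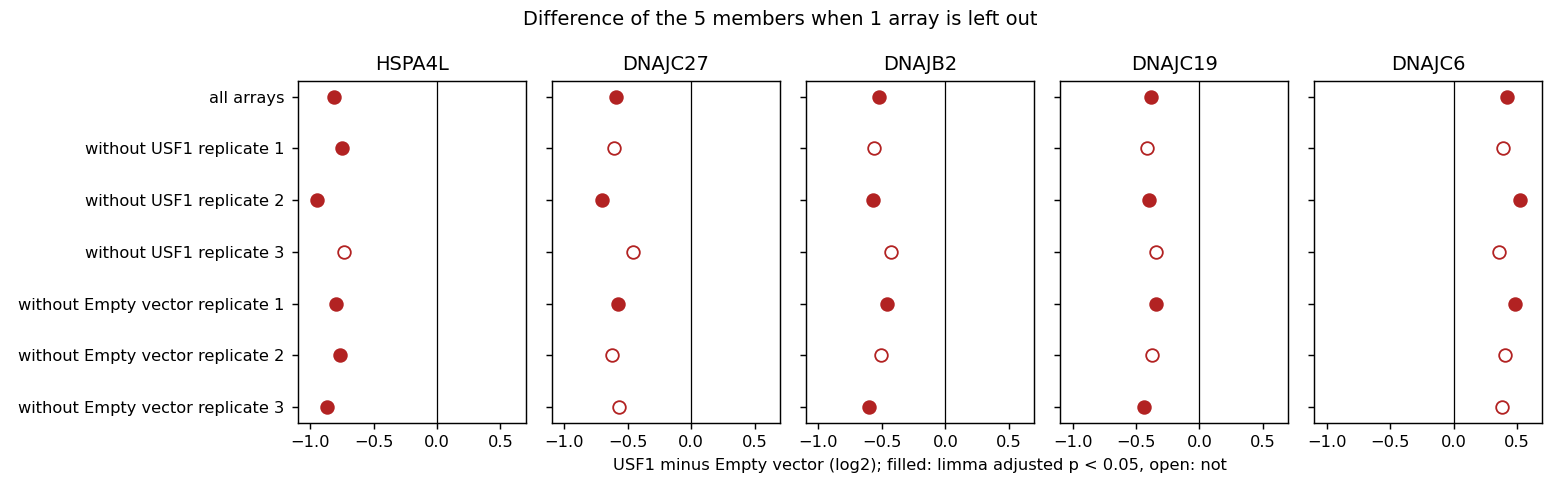
USF1 minus Empty vector (log2, horizontal axis) of the 5 members with all arrays and without each array in turn (vertical axis), filled where the gene passed limma at 0.05. The differences keep their side of 0 in each row, and the filled points are fewest without USF1 replicate 3, where none is filled.

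The stress-inducible HSP70 genes *HSPA1A* and *HSPA1B*, which are among the strongest targets of HSF1, lay just outside the threshold. The probe set that both share had log2 values of 8.42, 8.62 and 8.53 in the USF1 arrays and 7.94, 8.32 and 8.20 in the Empty vector arrays. The difference was 0.37 (SE 0.12, 95% interval 0.11 to 0.64, limma adjusted p-value = 0.0697). The probe set that they share with *HSPA1L* had values of 8.10, 7.89 and 8.14 against 7.34, 7.66 and 7.87, a difference of 0.42 (SE 0.14, 95% interval 0.10 to 0.74, limma adjusted p-value = 0.0854). In both the groups did not overlap, and Empty vector replicate 1 was the lowest array. Without it the differences were 0.26 and 0.28 (adjusted p-value = 0.116 and 0.136 from limma). The signals of these near-identical genes cannot be told apart on shared probe sets. The first of these probe sets passed with a trend and robust prior of the spread (limma adjusted p-value = 0.0294) and the second with array weights (limma adjusted p-value = 0.0398).

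The other genes with an HSPA symbol did not pass, apart from *HSPA4L*. *HSPA8*, the constitutive cytosolic HSP70, had log2 values of 9.98, 9.77 and 10.03 in the USF1 arrays and 9.78, 9.74 and 9.88 in the Empty vector arrays, which overlapped. Its 4 probe sets, which the annotation also gives to small nucleolar RNAs in its introns, differed by 0.13 to 0.18. *HSPA9*, the mitochondrial HSP70, had values of 9.31, 9.44 and 9.26 against 9.54, 9.61 and 9.50. Its groups did not overlap, and its 3 probe sets differed by -0.31 to -0.21, the main one by -0.21 (SE 0.09, limma adjusted p-value = 0.138). *HSPA9* is one of the members with an E-box shown above. *HSPA4*, a relative of *HSPA4L* with the same role, differed by 0.10 (SE 0.10), with 4 probe sets between 0.059 and 0.61, the last of them the dimmest (SE 0.38). *HSPH1*, the HSP110 exchange factor and another relative, differed by 0.09 (SE 0.10, 95% interval -0.15 to 0.33). Its second probe set, with groups that did not overlap, differed by 0.22 (SE 0.09, 95% interval 0.02 to 0.42, limma adjusted p-value = 0.130). The testis-enriched *HSPA2* (0.18, SE 0.12), the atypical *HSPA12A* (-0.01, SE 0.14), *HSPA13* of the endoplasmic reticulum (-0.06, SE 0.09) and *HSPA14*, which works at the ribosome (-0.15, SE 0.09), were not called.

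Across the HSP70 family, grouped here by the HSPA symbol, the median log2 difference was 0.044 over 10 members, 5 above 0 and 5 below it. The 1 call, downward, was that of *HSPA4L*, a relative of HSP110 like *HSPA4*, which the symbol also puts here. The 2 shared probe sets of *HSPA1A* and *HSPA1B* count as 2 of the 10. The median was 0.11 after centring, which raised every difference by the same amount, so that its sign could not turn. It was 0.093 after a further quantile normalization.

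HSP90 and its co-chaperones gave no call, and their 95% intervals held 0. *HSP90AA1*, the inducible cytosolic HSP90, had values of 11.06, 10.99 and 11.12 in the USF1 arrays and 10.93, 10.93 and 10.90 in the Empty vector arrays. The groups did not overlap, but the difference was 0.14 (SE 0.08, 95% interval -0.05 to 0.33, limma adjusted p-value = 0.287). *STIP1*, which links HSP70 to HSP90, differed by 0.13 (SE 0.09), *CHORDC1*, which binds HSP90, by -0.08 (SE 0.10) and *FKBP4*, a prolyl isomerase of steroid receptor complexes, by 0.009 (SE 0.09). Arrays of both groups overlapped in each of these 3. The second probe sets of *STIP1*, *FKBP4* and *HSP90AA1* differed by 0.34 (SE 0.16), 0.11 (SE 0.09) and 0.08 (SE 0.09), and none was called.

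The other genes known for their induction by heat gave no call either. *DNAJB1*, the main J partner of inducible HSP70, had log2 values of 7.36, 7.75 and 7.47 in the USF1 arrays and 7.77, 7.76 and 7.76 in the Empty vector arrays. The groups did not overlap, and USF1 replicate 2 lay next to the Empty vector arrays. The difference was -0.23 (SE 0.11, limma adjusted p-value = 0.187), -0.34 without USF1 replicate 2 (limma adjusted p-value = 0.0473), and the second probe set of *DNAJB1* differed by 0.048. *HSPB1*, a small heat shock protein that holds unfolded clients, had values of 8.03, 7.72 and 7.99 against 8.12, 7.74 and 7.94. Its difference was -0.02 (SE 0.13), and it was 0.048 after centring and 0.034 after quantile normalization. *BAG3*, which steers clients of HSP70 and small heat shock proteins into autophagy, differed by -0.08 (SE 0.11). *DNAJA1*, a farnesylated J partner of HSP70, differed by 0.05 (SE 0.08), and its second probe set by 0.27 (limma adjusted p-value = 0.0648).

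**Figure D4:**
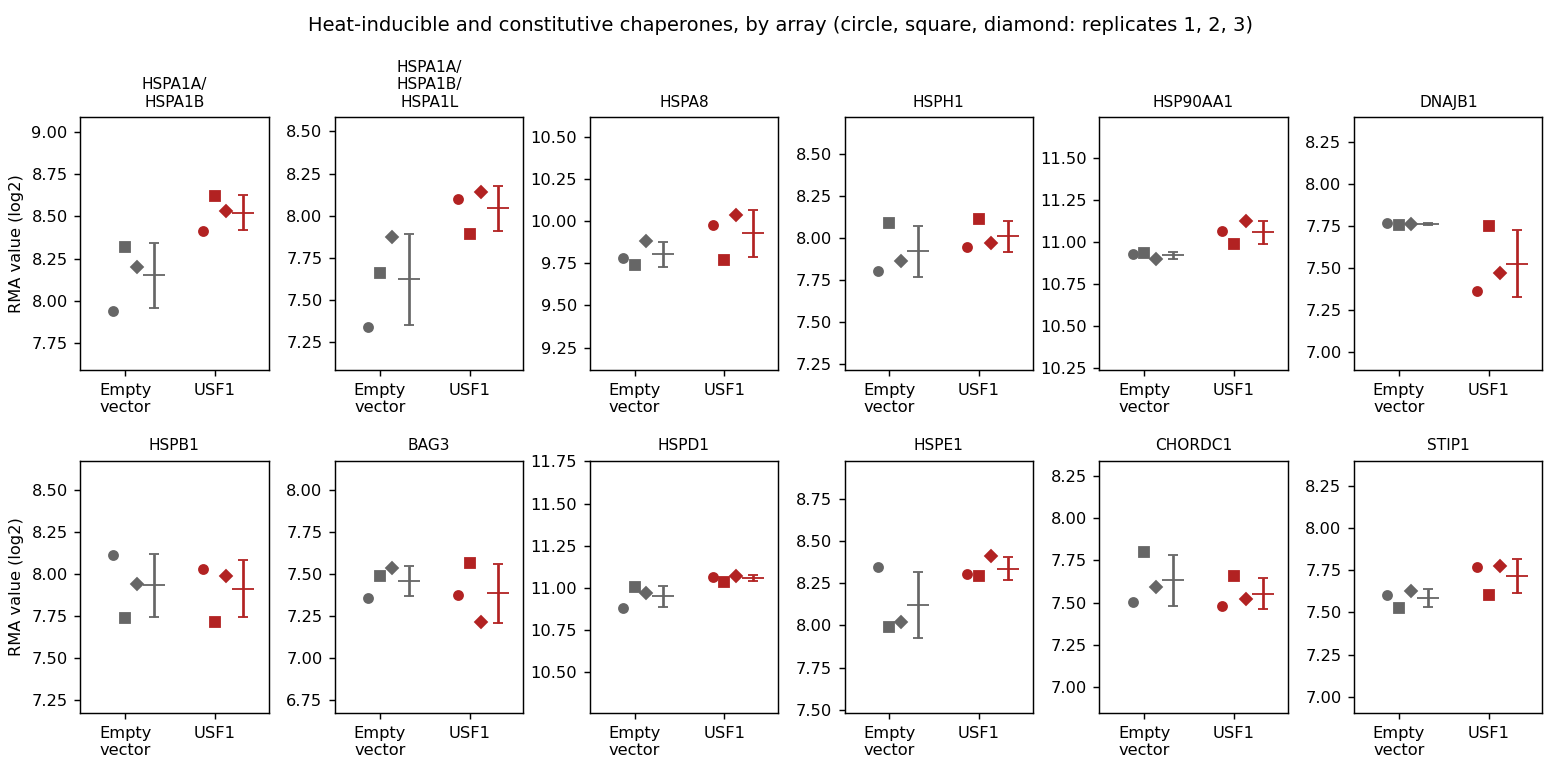
RMA expression values (log2, vertical axis, each panel with its own range) of 12 heat-inducible or constitutive chaperones, with USF1 arrays as red and Empty vector arrays as grey points and each group's mean (bar) and SD (error bar) over 3 arrays at their side. The groups overlap in *HSPA8*, *HSPH1*, *HSPB1*, *BAG3*, *HSPE1*, *CHORDC1* and *STIP1*, and do not in both panels of *HSPA1A* and in *HSP90AA1*, *DNAJB1* and *HSPD1*.

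The mitochondrial chaperonin HSP60 and its lid HSP10 share a promoter region with the E-box printed above. *HSPD1*, for HSP60, had log2 values of 11.07, 11.04 and 11.07 in the USF1 arrays and 10.88, 11.00 and 10.97 in the Empty vector arrays. The groups did not overlap, at a difference of 0.11 (SE 0.08, 95% interval -0.08 to 0.29, limma adjusted p-value = 0.401). The second probe set of *HSPD1*, with overlapping groups, differed by 0.22 (SE 0.10, limma adjusted p-value = 0.180). *HSPE1*, for HSP10, had values of 8.30, 8.29 and 8.41 against 8.34, 7.99 and 8.02. Empty vector replicate 1 lay among the USF1 arrays, and the difference was 0.22 (SE 0.11, limma adjusted p-value = 0.225). Without that array it was 0.33 (limma adjusted p-value = 0.0499). The read-through *HSPE1-MOB4*, whose probe set also reads *MOB4*, differed by 0.0099 (SE 0.09).

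The subunits of the cytosolic chaperonin CCT stayed within a narrow range. Of their genes 7 were measured, *CCT2*, *CCT3*, *CCT4*, *CCT5*, *CCT6A*, *CCT7* and *CCT8*, and none was called or had groups that did not overlap. Differences ran from -0.18 for *CCT5* (SE 0.10, 95% interval -0.41 to 0.06) to 0.14 for *CCT3* (SE 0.10, 95% interval -0.09 to 0.36). *CCT4* (0.01), *CCT6A* (0.04) and *CCT7* (0.0001) lay near 0, and *CCT2* (-0.13) and *CCT8* (-0.10) below it. The median of 0.0001 was 0.069 after centring and -0.027 after quantile normalization.

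Of the 33 J protein genes 4 were called, a share of 12.1% counted by genes, where 11.9% of all probe sets were called. Counted by probe sets, the share was 0% of 5 for DNAJA, 6.25% of 16 for DNAJB and 7.89% of 38 for DNAJC. Each of these lies below 11.9%. Of 22 measured DNAJC genes, 1 rose and 2 fell (13.6%). Before adjustment 4 of them were higher and 4 lower at a limma p-value under 0.05 (36.4%, against 31.3% of all probe sets). Their median of -0.012 turned to 0.056 after centring and to 0.043 after quantile normalization. Of 8 DNAJB genes 1 fell, and their median of -0.035 turned to 0.033 and to 0.0054. Of 3 DNAJA genes none was called, with *DNAJA3*, a mitochondrial J protein, at -0.19 (SE 0.09). Some DNAJC genes outside the threshold are named here after their values were seen. *DNAJC12*, which has an E-box and binds aromatic amino acid hydroxylases, had values of 7.67, 7.50 and 7.75 in the USF1 arrays and 7.47, 7.24 and 7.33 in the Empty vector arrays, a difference of 0.29 (SE 0.10, limma adjusted p-value = 0.0937). *DNAJC5*, the cysteine string protein of synaptic vesicles, had values of 6.05, 5.98 and 6.01 against 6.56, 6.28 and 6.18, a difference of -0.33 (SE 0.11, limma adjusted p-value = 0.0853). In both the groups did not overlap, and Empty vector replicate 1 was the highest of its group. *DNAJC1*, a J protein of the endoplasmic reticulum, had values of 8.33, 8.37 and 8.38 against 7.69, 8.19 and 8.17, a difference of 0.34 (SE 0.14, limma adjusted p-value = 0.132). Empty vector replicate 1 was the low array here. *DNAJC17* (0.40, SE 0.17, limma adjusted p-value = 0.148), with a weak signal and overlapping arrays, and the ribosome-bound *DNAJC2* (-0.25, SE 0.10, limma adjusted p-value = 0.134) did not pass. Among DNAJB genes, *DNAJB11* of the endoplasmic reticulum had values of 8.09, 7.98 and 8.03 against 7.94, 7.73 and 7.79, which did not overlap, at a difference of 0.21 (SE 0.09, limma adjusted p-value = 0.152).

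BAG proteins, many of which are exchange factors that couple HSP70 to breakdown or survival pathways, gave no call. Of their genes 5 of 6 were below 0, as were 60.8% of all probe sets. In *BAG1*, *BAG4*, *BAG5* and *BAG6* probe sets of the same gene had opposite signs. The median of the BAG genes was -0.14, and it was -0.070 after centring and -0.096 after quantile normalization. *BAG2*, which restrains the ubiquitin ligase STUB1, had log2 values of 6.21, 6.31 and 6.26 in the USF1 arrays and 6.63, 6.49 and 6.47 in the Empty vector arrays. Its groups did not overlap, and the difference was -0.26 (SE 0.09, limma adjusted p-value = 0.0783). *BAG2* passed with array weights, at -0.25 (limma adjusted p-value = 0.0471). Of 3 small heat shock proteins none was called, the largest difference being that of *HSPB8* (0.14, SE 0.13). *HSPBAP1*, with its E-boxes, differed by -0.23 (SE 0.11, limma adjusted p-value = 0.181), and the collagen chaperone *SERPINH1* by -0.12 (SE 0.09).

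The 8 genes with an E-box did not stand to one side. Their log2 differences ran from -0.23 to 0.29 with a median of -0.014, 4 of 8 were above 0, and none was called. Of all probe sets 11.9% were called, and 8 genes are too few to tell a lack of calls from that share. Among these 8, *HSPE1*, *HSPD1* and *HSPE1-MOB4* share the same E-box. The 56 matched genes without an E-box had a median of 0.012, with 30 above 0 and the 5 calls. Genes that share a probe set were counted singly here. Among the called genes, *HSPA4L* held a heat shock pair, printed above, and *DNAJC6* held one 43 bases after a start.

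Other genes of protein folding were counted in the same way. From a list of 43 co-chaperones, prefoldins, tubulin chaperones and heat shock factors, 36 were measured. Of these genes, each counted by 1 probe set, 1 rose and 4 fell (13.9%, against 11.9% of all probe sets). Their median log2 difference was -0.0079. Before adjustment, at a limma p-value under 0.05, 4 were higher and 7 lower, 30.6% against 31.3% of all probe sets. *SGTB*, an HSP70 co-chaperone with tetratricopeptide repeats, had values of 6.84, 6.77 and 6.91 in the USF1 arrays and 6.03, 6.32 and 5.90 in the Empty vector arrays. It rose by 0.75 (SE 0.12, limma adjusted p-value = 0.00885). The tubulin chaperone *TBCE* fell by 0.43 (SE 0.09, limma adjusted p-value = 0.0207), and its second probe set was also called (-0.52). *PFDN2*, a subunit of prefoldin, which hands new actin and tubulin to CCT, fell by 0.38 (SE 0.09), *TXNDC9*, which binds CCT, by 0.47 (SE 0.12) and *CDC37L1*, a relative of the HSP90 co-chaperone CDC37, by 0.55 (SE 0.13). Their adjusted p-values from limma were 0.0272, 0.0365 and 0.0314. *TXNDC9* lost its call after centring (limma adjusted p-value = 0.0574) and after quantile normalization (limma adjusted p-value = 0.0516). The second probe set of *TXNDC9* was not called (-0.43, limma adjusted p-value = 0.0744). *HSF1* differed by 0.24 (SE 0.11, limma adjusted p-value = 0.185). Without USF1 replicate 1, USF1 replicate 3 or Empty vector replicate 2 none of the 4 falls was called, and without Empty vector replicate 3 only that of *CDC37L1*. *SGTB* lost its call without USF1 replicate 3 (0.72, limma adjusted p-value = 0.0509) and kept it without each of the other 5 arrays.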

How the data were processed

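Values of 6 arrays were used, grouped and numbered by their titles. The authors deposited RMA expression values on the log2 scale. Per their methods and the submitters' processing notes, arrays were imported in R 2.8.0 with justRMA (background subtraction, quantile normalization) and an alternate probe definition without nonspecific probes, probe sets with few probes or mostly absent calls were excluded, and batch effects were corrected with ComBat, with batches not given in the sources used here. How these steps affect the spread was not tested. The number of arrays limits the precision.

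Differences were fitted with limma 3.58.1 (lmFit, eBayes) in R 4.3.3 over all 16569 probe sets, 33 of them control probe sets, without covariates, 2-sided, and adjusted by Benjamini and Hochberg. The procedure was tested on simulated data. A gene with several probe sets was represented by that with the highest mean over all 6 arrays. The 2-sided 95% intervals come from the same fit. Symbols follow the platform annotation, and promoters are from RefSeq, GRCh38.p14. Proteins were not analysed here. Members, lists, motifs and tests were chosen with earlier results of these data known. Named genes are members with a called probe set, a core of heat-inducible and constitutive chaperones and the largest difference of each family. CCT subunits and called genes of the other folding list are named too. Other genes given with values lie outside this rule and outside the count of named members over settings. Among them are *HSPA2*, *HSPA12A*, *HSPA13*, *HSPA14*, *DNAJB11*, *HSF1* and the DNAJC genes outside the threshold. Alternatives were the methods' t-test (Welch's and Student's), 2 scalings, a filter on the dimmest 25% of probe sets, a replicate block, other priors and array weights, arrays or controls left out, and other thresholds and units.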

Additional observations from a re-analysis of the deposited data

How the results depend on the processing

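With all arrays and limma, 1 member rose and 4 fell. The count of rises was 4 with Welch's test and 8 with Student's at an unadjusted p-value under 0.05 (7 falls with Student's), and 0 with either after Benjamini-Hochberg, when falls were 0 too and calls over all probe sets were 1 and 160. Of the members 61 were left without the dimmest 25% of probe sets, with 1 rise and 2 falls, as *DNAJC27* and *DNAJB2* were then not tested. Of all probe sets left, 13.8% were called. With a trend and robust prior 2 rose and 4 fell (8.57%, against 15.2% of all probe sets), and with array weights 4 rose and 5 fell (12.9%, against 22.3%). With the mean of a gene's probe sets 2 rose and 4 fell. With the limma threshold moved to 0.1 the rises were 4 and the falls 6, and at 0.01 the rises were 0 and 1 fall, *HSPA4L*, was left. Shares over all probe sets were not counted for the mean of probe sets or for these thresholds. Without single arrays the rises ranged from 0 to 2 and the falls from 0 to 5. Without both Empty vector arrays of low actin value, chosen after seeing the data, both counts were 0. Calls over all probe sets were 1974 with 715 higher, 1856 with 1041 higher after centring and 1935 with 976 higher after quantile normalization, and the members' counts were then 1 and 4. For 34 named members over 18 settings, no called difference reversed. Of 608 values 545 stayed on their side of the threshold, 13 gained a call and 20 of uncalled members crossed 0. The 30 that lost a call were all of the 5 called members, as the other members had none to lose. The 545 are mostly values of uncalled members and do not measure how stable the 5 calls were.

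The correlation of deviations between same-numbered arrays was 0.096, 0.246 and 0.129, and each array correlated best with its own number. Arrays of different numbers had values from -0.171 to 0.025. Whether the replicate numbers pair the arrays is not settled by these values. With the replicate block 2 members rose (*DNAJC6* and the probe set of *HSPA1A* and *HSPA1B*, adjusted p-value = 0.0333 from limma) and 4 fell, and 2875 probe sets were called. No other call of a named member changed under the block.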

Other observations

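Of 33 members with several probe sets, 8 had probe sets of opposite sign, namely *BAG1*, *BAG4*, *BAG5*, *BAG6*, *DNAJB1*, *DNAJB14*, *DNAJC10* and *DNAJC18*, and none of their probe sets was called. The widest spread was that of *BAG5*, whose probe sets differed by -0.36, -0.22 and 0.34 on the log2 scale, the last with an SE of 0.33.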
